A study of Rattus norvegicus with 4 samples.

Results

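The α1-adrenergic receptors Adra1a, Adra1b and Adra1d, the β1 receptor Adrb1, the G protein α subunits Gnaq and Gna11, the phospholipases Plcb3 and Plcb4 and the receptor kinase Grk5 were followed in ribosome footprints from ventricular cardiomyocytes of newborn rats. These 9 genes were chosen by name, and every open reading frame (ORF) listed under them was kept: 15 ORFs of the 18847 deposited. Of the 15, 11 were annotated coding ORFs, 3 were upstream ORFs (uORFs, which lie ahead of the coding ORF on the same transcript) and 1 was an internal ORF in another reading frame. The main ORF of a gene was its annotated ORF with most counts over all libraries. The PE group had 2 libraries from cells given phenylephrine (PE) at 20 µM for 24 h, and the control group had 2 libraries from untreated cells. Groups come from the sample titles, since the treatment protocol in the labels mentions PE for all 4 libraries. All cultures were labelled as ventricular cardiomyocytes of Sprague-Dawley rats at postnatal day 2, and were grown in medium with fetal bovine serum after preplating to remove other cells, and the labels name no genetic change in either group. The labels do not give the number or sex of the animals or whether replicates were grown apart, so the p-values rest on a spread between libraries that may be only technical.

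Phenylephrine is an agonist of α1-adrenergic receptors. An occupied α1 receptor activates Gq or G11, whose α subunits switch on β-type phospholipase C, and the products of that enzyme release stored calcium and activate protein kinase C. In cultured neonatal rat cardiomyocytes this route is a classical trigger of hypertrophic growth, and receptor kinases such as Grk5 phosphorylate occupied receptors and uncouple them. The β1 receptor couples to Gs instead and is the main β receptor of cardiomyocytes.

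The libraries held 12117629 and 12537740 footprints on listed ORFs in PE, and 11446574 and 13827599 in control. Values are CPM, counts scaled to a common library size with TMM factors, and CPM per kb of ORF where genes are set against each other. A footprint count reflects both the amount of an mRNA and how heavily it was translated, and these were not separated here, since no RNA-seq was analysed. Cardiomyocyte markers were present at a like summed level, 51010 and 51240 CPM in PE and 50930 and 51040 CPM in control, over the 6 of 7 listed markers that had an annotated ORF. Myh7 made up most of that sum, and single markers moved either way: 2 were higher and 4 lower, or 4 higher and 2 lower with a trend in ORF length taken out. The calcium release channel Ryr2 had 1036 CPM in PE and 1892 CPM in control, and the myosin light chain Myl3 had 7288 CPM in PE and 5367 CPM in control. Markers of other cell types were present too and are given beside the receptors.

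The α1 receptors moved apart after PE. Adra1a rose 1.66-fold, Adra1b was 2.29-fold lower and Adra1d 5.88-fold lower. Grk5 rose 1.48-fold, Adrb1 was 1.47-fold lower, and Gnaq and Gna11 passed the test narrowly at 1.15-fold and 1.17-fold. Plcb3 did not pass, and Plcb4 had almost no counts. Of the 9 main ORFs, all of which were tested, 4 were higher and 3 lower at an adjusted p under 0.05 (edgeR's quasi-likelihood method, Benjamini-Hochberg adjusted over 12609 ORFs). Over all tested ORFs 21.4% were higher and 21.3% lower, and over the 11286 tested main annotated ORFs 22.3% were higher and 22.8% lower. With so many ORFs called, a call alone sets the 9 genes little apart, and their median log2 fold change was -0.06 against -0.01 for all main annotated ORFs. Against a 1.5-fold change, Adra1b (adjusted p = 0.0077 in edgeR) and Adra1d (2.0e-07) still passed as lower and no other member passed, where 3.73% of main annotated ORFs passed as higher and 4.64% as lower.

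**Figure D1:**
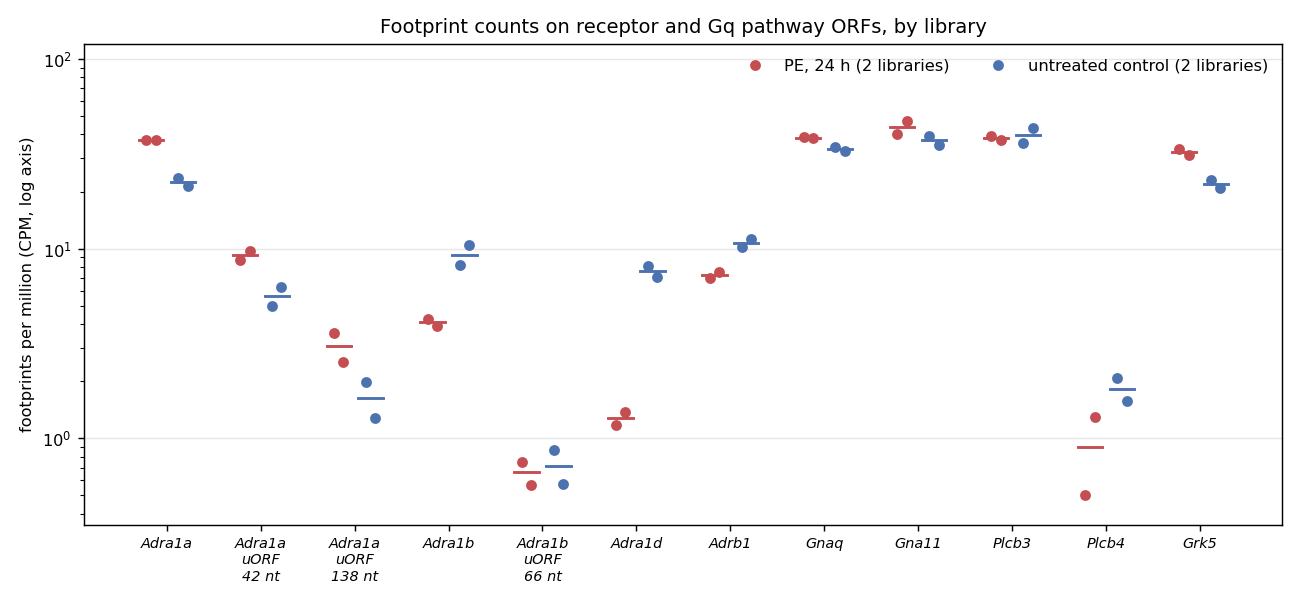
Footprint counts in CPM on a log axis for the 9 main ORFs and the 3 uORFs, with PE libraries left of control libraries. Points are single libraries and bars are group means (n = 2). Adra1a and Grk5 stand higher in PE, Adra1b, Adra1d and Adrb1 stand lower, and the libraries of Plcb3 and of the Adra1b uORF overlap.

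Adra1a encodes the α1A receptor (ENSRNOG00000009522, Rnor_6.0 chromosome 15, plus strand, 43299400 to 43392419). The span of its 1398 nt coding ORF, introns included, is 93020 nt. It had 445 and 460 counts in the PE libraries, against 273 and 301 in the control libraries. In CPM these were 37.2 and 37.4 in PE, against 23.5 and 21.5 in control. Both PE libraries were above both control libraries, and the PE libraries nearly coincided. On the log2 scale the change was 0.73 ± 0.09 (SE) (adjusted p = 6.2e-08, edgeR quasi-likelihood). Of the main annotated ORFs, 652 of 11286 had a higher log2 fold change.

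Adra1d encodes the α1D receptor, best known from arterial smooth muscle (ENSRNOG00000021256, chromosome 3, minus strand, 124130335 to 124145085). It had 14 and 17 counts in PE, against 94 and 99 in control. That is 1.17 and 1.38 CPM in PE, against 8.10 and 7.06 CPM in control, groups far from overlapping. This is a log2 fold change of -2.55 ± 0.28 (SE) (adjusted p = 2.6e-09, edgeR quasi-likelihood). It was the largest change among the 9 genes, and 43 of the 11286 main annotated ORFs had a lower value.

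Adra1b encodes the α1B receptor (ENSRNOG00000060087, chromosome 10, minus strand, 29393309 to 29450255). It had 51 and 48 counts in PE, against 95 and 146 in control. In CPM it had 4.26 and 3.90 in PE, against 8.18 and 10.4 in control. The groups did not overlap, although the control libraries differed from each other more than the PE libraries did. The log2 fold change was -1.20 ± 0.20 (SE) (adjusted p = 8.6e-06, edgeR quasi-likelihood). In the deposited annotation 20 of its 518 residues are written as X, and this ORF had 0.856 counts per P-site (a P-site marks the ribosome's peptidyl site on a footprint) where the median tested ORF had 1.17.

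Adrb1 encodes the β1 receptor with no intron in its coding stretch of 1401 nt (ENSRNOG00000017002, chromosome 1, plus strand, 277537585 to 277538985). It had 84 and 93 counts in PE, against 119 and 157 in control. In CPM it had 7.02 and 7.56 in PE, against 10.3 and 11.2 in control. The groups did not overlap. The log2 fold change of -0.56 ± 0.16 (SE) passed (adjusted p = 0.0055, edgeR quasi-likelihood) but not without control replicate 2 (-0.49, adjusted p = 0.055) or in DESeq2 (adjusted p = 0.078).

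**Figure D2:**
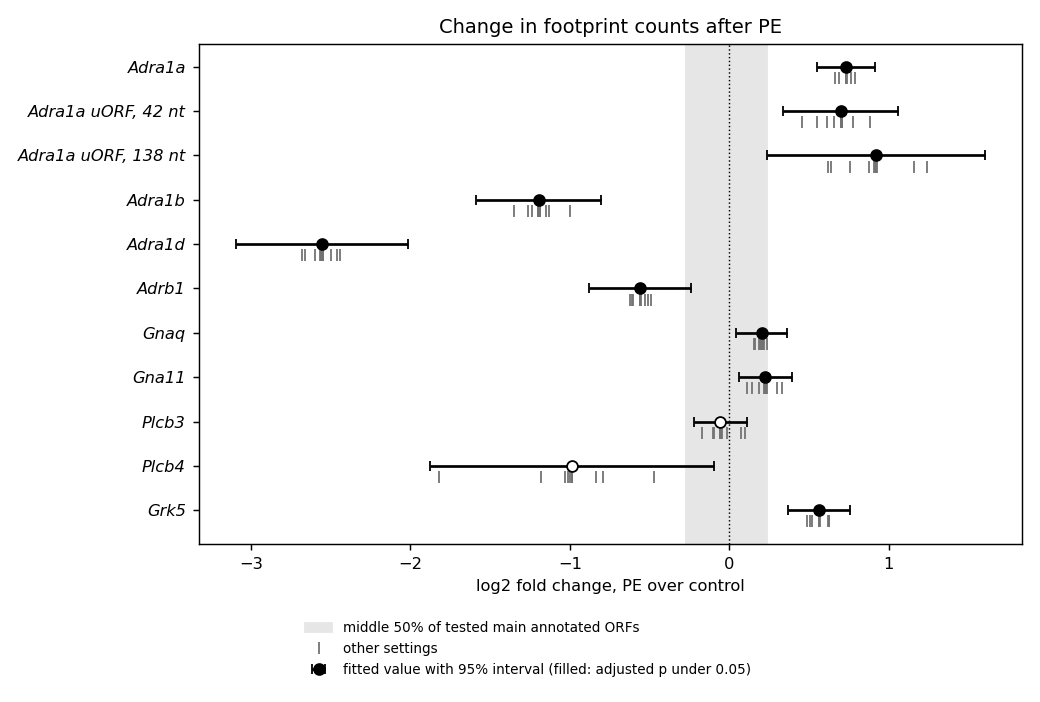
Log2 fold change of PE over control for the 11 tested ORFs, with bars of 95% intervals. Filled points have an adjusted p under 0.05, grey ticks are the values under the other settings, and the band is the middle 50% of main annotated ORFs, from -0.27 to 0.24. Adra1a, its uORFs and Grk5 lie right of the band, Adra1b, Adra1d and Adrb1 lie left of it, and Gnaq, Gna11 and Plcb3 lie within it.

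Per kb of ORF, the PE libraries had 26.6 and 26.7 CPM per kb of Adra1a, against 16.8 and 15.4 in the control libraries. Summed over the 3 α1 receptors, the level was 30.05 and 30.07 CPM per kb in PE, against 26.9 and 26.2 in control. Adra1a made up 88.6% and 88.9% of that sum in PE, against 62.6% and 58.5% in control. Adra1b made up 9.13% and 8.35% in PE, against 19.6% and 25.5% in control. Adra1d made up 2.31% and 2.73% in PE, against 17.9% and 16.0% in control. The sums did not overlap between the groups but lay closer together than the shares did. Shares were not corrected for counts per P-site, which were 0.856 for Adra1b, 1.17 for Adra1a and 1.11 for Adra1d.

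Within each library, the ratio of Adra1a to Adra1b per kb was 9.70 and 10.7 in PE, against 3.19 and 2.29 in control. The ratio of Adra1a to Adra1d was 38.3 and 32.6 in PE, against 3.50 and 3.67 in control. The α1 sum was 5.98 and 5.56 times the Adrb1 level in PE, against 3.67 and 3.28 times in control. Neither group of any of these ratios overlapped the other. An exact permutation test of each log2 ratio, two-sided, gave p = 0.333 for Adra1a to Adra1b, Adra1a to Adra1d, Adra1b to Adra1d and Adra1a to Adrb1, which is the smallest p that 2 libraries against 2 allow. This test therefore cannot reach 0.05 here, whatever the size of the difference.

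**Figure D3:**
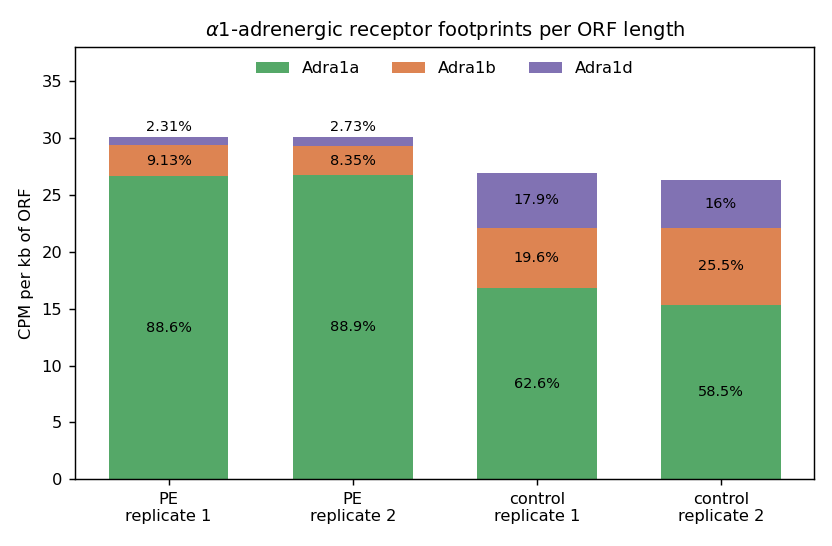
Footprints on the α1 receptors in CPM per kb of ORF, as stacked bars for each library, PE left of control. Numbers are the percent of the α1 sum in that library. Adra1a takes 88.6% and 88.9% of the bar in PE, and 62.6% and 58.5% in control.

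Most tested markers of other cell types were lower after PE, as were 4 of 6 cardiomyocyte markers. Over all main annotated ORFs tested, 22.8% were lower. Of 6 tested smooth muscle markers, 5 were lower and 1, Cnn1, was higher, and their summed level was 1129 and 1144 CPM in PE, against 1233 and 1234 CPM in control. The smooth muscle myosin Myh11 had 20.4 and 20.3 CPM in PE, against 36.4 and 36.5 CPM in control, while the calponin Cnn1 had 253 and 253 CPM in PE, against 57.8 and 53.4 CPM in control. Of 6 tested fibroblast markers 4 were lower, with Dcn higher and Lum not called. Their sum was 18500 and 18710 CPM in PE, against 26770 and 26900 CPM in control. Most of that difference lay in Postn, with 6594 CPM in PE and 13714 CPM in control. Dcn went the other way, with 4978 CPM in PE and 3074 CPM in control. Col1a2 was not tested: it had 0.0813 CPM on average in PE and 0 counts in control, although it has P-sites in the annotation. Of 6 tested endothelial markers 4 were lower, and the sum was 123 and 133 CPM in PE, against 222 and 212 CPM in control. Cdh5 made up most of that sum, with 72.5 CPM in PE and 140 CPM in control. Kdr had 0.276 counts per P-site, and 3 endothelial markers were lower without ORFs under 0.5. Of 6 tested macrophage markers 5 were lower, with sums of 197 and 192 CPM in PE against 318 and 298 CPM in control, and Cd163 had 0 counts in all libraries. These libraries are of bulk cultures, so fewer cells of a type and less RNA per cell cannot be told apart. The part of these cells in the values of Adra1b and Adra1d was not tested.

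Promoter sequences are shown for the 3 receptors that fell and for Grk5, which rose, so that their letters can be compared. They come from RefSeq on the GRCr8 assembly, each from 250 bases before to 50 after the gene's start, 5′ to 3′ on the gene's strand. Of the 9 genes 8 matched by symbol, and Adra1a is named only. Capitals mark GC boxes (GGGCGG, a binding motif of Sp1) and M-CAT motifs (CATTCC, a binding motif of TEAD factors), on either strand. The windows are chr3:139262282-139262581 for Adra1d, chr10:28814298-28814597 for Adra1b, both on the minus strand, and chr1:265776853-265777152 for Adrb1 and chr1:270014086-270014385 for Grk5, both on the plus strand.
Adra1d: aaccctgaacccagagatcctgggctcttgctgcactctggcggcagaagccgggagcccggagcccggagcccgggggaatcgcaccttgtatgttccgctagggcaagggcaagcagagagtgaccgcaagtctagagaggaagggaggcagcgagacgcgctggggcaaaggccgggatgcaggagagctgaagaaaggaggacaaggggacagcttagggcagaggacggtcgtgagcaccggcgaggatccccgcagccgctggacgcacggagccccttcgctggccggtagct
Adra1b: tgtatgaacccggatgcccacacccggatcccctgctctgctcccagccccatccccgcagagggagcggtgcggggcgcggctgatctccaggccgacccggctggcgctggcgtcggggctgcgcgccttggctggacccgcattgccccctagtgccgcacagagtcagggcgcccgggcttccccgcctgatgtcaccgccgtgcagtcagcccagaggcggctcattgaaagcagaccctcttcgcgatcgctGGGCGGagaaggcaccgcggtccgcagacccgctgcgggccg
Adrb1: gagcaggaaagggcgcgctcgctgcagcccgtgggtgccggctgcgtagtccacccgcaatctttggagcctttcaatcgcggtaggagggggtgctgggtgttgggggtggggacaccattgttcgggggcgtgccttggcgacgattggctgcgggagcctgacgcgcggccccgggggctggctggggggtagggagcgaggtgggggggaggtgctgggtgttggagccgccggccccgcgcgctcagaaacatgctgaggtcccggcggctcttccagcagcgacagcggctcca
Grk5: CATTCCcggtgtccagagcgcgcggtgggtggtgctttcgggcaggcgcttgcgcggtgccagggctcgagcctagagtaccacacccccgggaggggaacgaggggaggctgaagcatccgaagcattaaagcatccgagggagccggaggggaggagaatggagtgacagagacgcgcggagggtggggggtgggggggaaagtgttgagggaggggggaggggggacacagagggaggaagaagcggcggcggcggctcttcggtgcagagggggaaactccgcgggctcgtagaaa

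The Adra1d window held none of the searched motifs, and the Adra1b window held 1 GC box, within its last 50 bases. The Grk5 window opened with an M-CAT motif, and the Adrb1 window had neither capital motif but 1 TGACG, the core of cAMP response elements. GC boxes were present in 33.1% of the 33469 promoters of the table, M-CAT motifs in 14.2%, TGACG in 21.2% and the AP-1 motif TGAGTCA in 4.63%, which none of the 8 windows held. Overlapping matches of one motif were counted apart, and different motifs shared no letters in the windows shown. The windows of Plcb3 and Plcb4 each held 7 GC boxes, those of Gnaq and Gna11 2 each. The Gna11 window also held 1 M-CAT motif, and those of Gnaq and Plcb3 1 TGACG each. All 8 windows were rich in G and C, from 65.7% in Adra1d to 84.3% in Plcb4, where the median of the table was 51.7%. A match describes letters only and does not show that a factor binds there.

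The transcript of Adra1a carries 2 listed uORFs, and both had more footprints after PE. The first has 14 codons and ends 307 nt ahead of the coding ORF (chromosome 15, 43299048 to 43299092). It had 104 and 120 counts in PE, against 58 and 88 in control, and a log2 fold change of 0.70 ± 0.18 (SE; adjusted p = 0.0023 in edgeR), or 0.46 with the length trend taken out. The second has 46 codons and ends 92 nt ahead of the coding ORF (43299167 to 43299307). It had 43 and 31 counts in PE, against 23 and 18 in control, and a log2 fold change of 0.92 ± 0.35 (SE; adjusted p = 0.033 in edgeR). PE libraries were above control libraries for both. The second lost its call without PE replicate 1 (0.64, adjusted p = 0.285) or control replicate 2 (0.62, adjusted p = 0.257), with a length trend taken out (adjusted p = 0.083) and in DESeq2 (adjusted p = 0.18).

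The first Adra1a uORF was densely covered. Its counts came to 23.4% and 26.1% of those on the coding ORF in PE, against 21.2% and 29.2% in control, although it is 42 nt long. Per kb it had 7.78 and 8.68 times the coding ORF's level in PE, against 7.07 and 9.73 times in control. P-sites, which place a footprint within an ORF, gave 5976 in-frame sites per kb on this uORF and 751 on the coding ORF. The P-sites are not split by library. How these sites were spread along so short a uORF was not examined. The second uORF was covered about as densely as the coding ORF, at 0.979 and 0.683 times its level per kb in PE, against 0.853 and 0.606 times in control.

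The uORFs of Adra1a were tested for a change different from that of the coding ORF, on the ratio of the 2 counts within each library. For the first uORF the ratio changed by -0.02 ± 0.22 on the log2 scale (SE; 95% interval -0.49 to 0.46; adjusted p = 0.98 in limma over 671 pairs). For the second it changed by 0.17 ± 0.33 (SE; 95% interval -0.54 to 0.89; adjusted p = 0.86 in limma). The intervals allow the first uORF to have changed between 0.711 and 1.37 times as much as the coding ORF, so a difference within that range was not detectable at this depth. Over all 671 pairs 7, or 1.04%, passed in limma.

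Adra1b also has a listed uORF of 22 codons that ends 64 nt ahead of the coding ORF. It had 9 and 7 counts in PE, against 10 and 8 in control, and was not tested for its low counts. Its counts thus overlapped between the groups while those on the coding ORF were lower. With the count minimum lowered to a mean of 5, the ratio of this uORF to the coding ORF changed by 1.08 ± 0.56 on the log2 scale (SE; 95% interval -0.155 to 2.32; adjusted p = 0.48 in limma), which did not pass.

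Inside the coding ORF of Adra1b the annotation lists a further ORF of 72 codons, shifted by 1 nt against its frame (29449973 to 29450191). It had 53 P-sites in its own frame and 94 in all, but 0 counts in every library, so no change can be given for it. In the coding ORF 73.3% of 397 P-sites were in frame, with 85 in the frame of the internal ORF. In the main ORFs of the other 8 genes the in-frame share ran from 83.0% to 87.1%, and over all ORFs it was 84.7%. How footprints shared by overlapping ORFs were counted is not given in the sources used here.

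Gnaq and Gna11 encode the α subunits that α1 receptors activate. Their deposited protein sequences have 359 residues each, of which 319, or 88.9%, are the same at the same position. Gnaq (ENSRNOG00000014183, chromosome 1, plus strand, 233382778 to 233622588) had 465 and 470 counts in PE, against 401 and 456 in control, and 38.9 and 38.2 CPM in PE, against 34.5 and 32.5 CPM in control. Gna11 (ENSRNOG00000005446, chromosome 7, plus strand, 11033400 to 11047284) had 480 and 578 counts in PE, against 458 and 494 in control, and 40.1 and 47.0 CPM in PE, against 39.5 and 35.2 CPM in control. For both genes every PE library was above every control library in CPM, for Gna11 only just. Such groups also stood apart in 34.5% of main annotated ORFs with PE above control and in 35.8% with PE below.

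The log2 fold change was 0.20 ± 0.08 (SE) for Gnaq, with an adjusted p = 0.047, and 0.23 ± 0.08 (SE) for Gna11, with an adjusted p = 0.030, both in edgeR's quasi-likelihood test. Gnaq did not pass in any fit that left out 1 library, with adjusted p of 0.166 without PE replicate 1, 0.102 without PE replicate 2, 0.0599 without control replicate 1 and 0.271 without control replicate 2. Gna11 did not pass without PE replicate 2 (0.11, adjusted p = 0.445) or control replicate 2 (0.14, adjusted p = 0.292). In DESeq2 neither passed, with adjusted p of 0.243 for Gnaq and 0.189 for Gna11. Their ratio, Gnaq to Gna11 per kb, was 0.969 and 0.813 in PE, against 0.876 and 0.923 in control, with overlapping groups (exact permutation p = 1.0, two-sided).

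Plcb3 and Plcb4 encode phospholipases of the β type, which Gq activates. Plcb3 (ENSRNOG00000021150, chromosome 1, minus strand, 222209589 to 222224843) had 39.4 and 37.3 CPM in PE, against 36.3 and 43.0 CPM in control. Both PE libraries lay between the control libraries. The log2 fold change was -0.06 ± 0.08 (SE; adjusted p = 0.64 in edgeR), and its 95% interval runs from 0.857-fold to 1.08-fold.

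Plcb4 (ENSRNOG00000033119, chromosome 3, plus strand, 128828527 to 128970234) cannot be judged from these counts. It has 3 annotated ORFs that start at the same base, of 3066, 3528 and 3618 nt. They had 4521, 5051 and 5224 in-frame P-sites, more than the main ORF of any other of the 9 genes. The shorter ORFs nonetheless had 0 counts in all libraries. The longest had 6 and 16 counts in PE, against 24 and 22 in control, or 0.0110 counts per P-site. On that remainder the log2 fold change was -0.99 ± 0.46 (SE; adjusted p = 0.083 in edgeR). It ranged from -0.47 without PE replicate 1 to -1.82 without PE replicate 2, where it passed with an adjusted p = 0.024.

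Grk5 encodes a G protein-coupled receptor kinase that is abundant in heart (ENSRNOG00000011439, chromosome 1, plus strand, 282265607 to 282462262). It had 401 and 384 counts in PE, against 267 and 293 in control. In CPM it had 33.5 and 31.2 in PE, against 23.0 and 20.9 in control. The groups were clearly apart. Grk5 changed by a log2 value of 0.56 ± 0.10 (SE) (adjusted p = 1.6e-05, edgeR quasi-likelihood).

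In the authors' deposited table of their own DESeq2 comparison, 4 of the 9 main ORFs had an adjusted p under 0.05, where 28.5% of main annotated ORFs with a value there did. The authors' deposited table gives adjusted p of 2.4e-06 for Adra1a, 9.9e-09 for Adra1d, 7.6e-04 for Adra1b and 0.0011 for Grk5. For Adrb1 the authors' deposited table gives 0.098, for Gna11 0.22 and for Gnaq 0.28. Neither uORF of Adra1a passed there, with a DESeq2 adjusted p of 0.053 for the first and 0.21 for the second.

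Leaving out Plcb4, levels per kb kept the same order in both groups. The order was Gna11, Gnaq, Adra1a, Grk5, Plcb3, Adrb1, Adra1b and Adra1d. Gna11 had 40.4 CPM per kb in PE and 34.7 in control, and Gnaq 35.8 in PE and 31.1 in control. Grk5 had 18.3 CPM per kb in PE and 12.4 in control, Plcb3 10.3 in PE and 10.7 in control, and Adrb1 5.21 in PE and 7.67 in control. At the low end Adra1b had 2.63 CPM per kb in PE and 5.98 in control, and Adra1d 0.757 in PE and 4.50 in control. Adra1b had 0.856 counts per P-site against 1.13 for Adrb1 next above it, and the order was not corrected for that. No neighbours in this order had overlapping libraries within a group, although some came close. In control the lowest Grk5 library was at 11.8 against the highest Plcb3 library at 11.6. The lowest Gna11 library was at 32.7 against the highest Gnaq library at 32.1 in control, and at 37.3 against 36.1 in PE.

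The other genes of the route were mixed. Calls in these lists stand beside 22.3% higher and 22.8% lower over all main annotated ORFs tested. Of 10 tested α subunits of other G proteins, 5 were higher and the others not called, with a median log2 fold change of 0.39. Gnao1, a subunit of the Gi/o class, had 173 and 174 CPM in PE, against 95.9 and 97.3 CPM in control, and rose by 0.84 ± 0.04 (log2, SE). Gnas, the Gs subunit that β receptors use, rose by 0.28, Gnal by 0.66 and Gnai1 by 0.50. Against a 1.5-fold change 1 of the 10 tested subunits was higher, and in DESeq2 4 were.

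Of 10 tested β and γ subunits, 3 were higher and 1 lower, with a median of -0.10. Main annotated ORFs tested were higher in 22.3% and lower in 22.8%. Gnb3 had 9.31 CPM in PE and 35.7 CPM in control and was lower by 1.94 ± 0.11 (log2 fold change of -1.94, SE). Gnb1 rose by 0.67, with 0.179 counts per P-site, Gng3 by 1.92 from a low level and Gng10 by 0.34. Without control replicate 1, 2 were lower, and 3 with the length trend taken out.

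Plcb1 had 0 and 1 counts in PE and 1 in each control library, against 188 P-sites, and was not tested. Against 22.8% lower and 22.3% higher over tested main annotated ORFs, 4 of 9 tested phospholipases outside Plcb3 and Plcb4 were lower and 2 higher. The median over the 9 was -0.35. The lower ones included Plcg1, which receptor tyrosine kinases activate, with 89.7 CPM in PE and 110 CPM in control, and the catalytically inactive relatives Plcl1 at -0.85 and Plcl2 at -0.73, with Plce1 at -0.38. The number of higher genes depended on the library set, at 1 without PE replicate 1 or PE replicate 2 and 0 without either control replicate or in DESeq2. Of 3 listed IP3 receptors, calcium channels of the endoplasmic reticulum, Itpr2 had no annotated ORF, and the other 2 split. Itpr3 had 27.0 and 32.2 CPM in PE, against 17.5 and 18.8 CPM in control, and rose by 0.70, while Itpr1 had 86.6 and 97.2 CPM in PE, against 127 and 113 CPM in control, with a log2 fold change of -0.38. Itpr1 lost its call with the length trend taken out, and neither receptor passed against a 1.5-fold change.

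**Figure D4:**
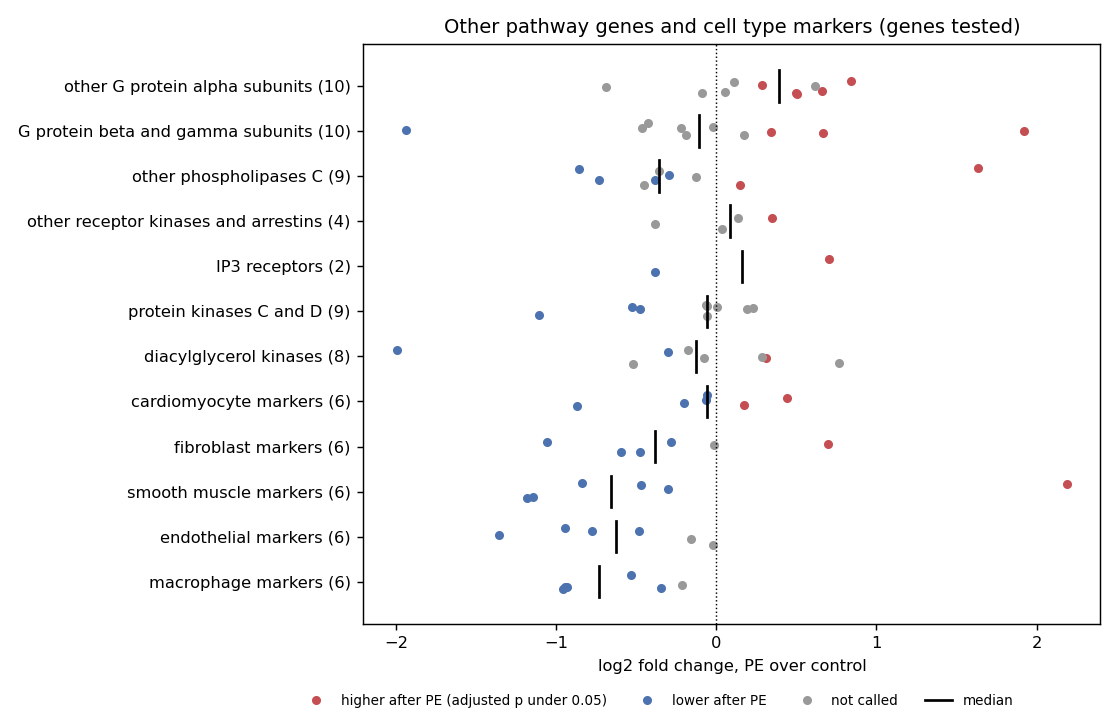
Log2 fold change of PE over control for tested genes of other pathway lists and of cell type markers, with the number tested in brackets and the list median as a black bar. Red points were higher and blue points lower at an adjusted p under 0.05, and grey points were not called. The α subunit list has a median of 0.39 and the marker lists of smooth muscle, endothelial cells and macrophages have medians of -0.66, -0.63 and -0.73.

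Of 9 tested protein kinases C and D, 3 were lower and the others not called, with a median of -0.06. The lower ones were Prkd1 at -0.48, Prkd2 at -0.53 and Prkcb at -1.10, and 1 gene of the list was lower without PE replicate 2 or with the length trend taken out. Without PE replicate 1, 1 kinase of the list was higher. None of the 3 passed in DESeq2. Of 8 tested diacylglycerol kinases, which remove the lipid that activates protein kinase C, 2 were lower and 1 higher, with a median of -0.12. With 22.3% of all tested main annotated ORFs higher and 22.8% lower, the counts of both lists set them little apart. Dgkb had 1.98 CPM in PE and 7.88 CPM in control, a log2 fold change of -1.99, Dgkz had -0.30 and Dgka rose by 0.31. The call of Dgka was lost without PE replicate 1 or control replicate 2, and 1 gene of the list was lower without PE replicate 2 or control replicate 2, or with the length trend taken out. DESeq2 called 1 gene of the list lower and no gene higher.

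Among the other receptor kinases and arrestins 4 were tested. Grk2 had 31.3 and 28.7 CPM in PE, against 23.3 and 23.8 CPM in control, and rose by 0.35 ± 0.10 (log2, SE; adjusted p = 0.0039 in edgeR), a call lost without PE replicate 1 and in DESeq2. Grk3 had 0.13, Arrb1 0.04 and Arrb2 -0.38 on the log2 scale, and none of these passed.

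The genes whose counts followed the α1 receptors most closely were named by a fixed measure, the Euclidean distance between log2 CPM values centred on each gene's own mean over the 4 libraries, among main annotated ORFs within 2 times the receptor's mean CPM. For Adra1a, out of 3830 such ORFs, they were Spryd3 at a distance of 0.0164, Sox9 at 0.0454 and Ccnd1 at 0.0476. Spryd3 had 24.2 and 24.1 CPM in PE, against 15.3 and 14.0 CPM in control. For Adra1b, out of 2761, they were Tcea3 at 0.0828, St8sia4 at 0.116 and Klf2 at 0.119. For Adra1d, out of 2335, they were Plin5 at 0.196, Igfbp2 at 0.231 and Fam198a at 0.264. Plin5 had 2.26 and 2.52 CPM in PE, against 11.4 and 11.3 CPM in control. With 4 libraries in 2 groups, genes that changed by a similar amount lie close on this measure.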

How the data were processed

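Per the labels' protocols, cells were lysed with cycloheximide, lysates digested with RNase I, monosomes recovered on columns, ribosomal RNA removed and short fragments sequenced. The submitters' processing notes name Rnor_6.0 with STAR 2.4.2a, Bowtie 1.1.2 and cutadapt 2.0, and the sources used here do not name the ORF caller or counting program. Raw counts per ORF and library were deposited. Per the file headers, the deposited annotation adds the authors' DESeq2 output (log2 fold change with SE, raw and adjusted p-value), a normalized mean signal (not used) and P-sites per frame pooled over libraries. Per-sample columns left unused numbered 0. Groups came from the sample titles.

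Counts were filtered with filterByExpr and tested with edgeR 4.0.16 (R 4.3.3) over all 4 libraries without a replicate term, with TMM factors of 0.982 to 1.02. SE is the log2 fold change divided by the root of F. The common biological coefficient of variation was 2.18%, so small changes can pass. Replicates were more different than counting noise alone allows (chi-square per degree of freedom 1.60 in PE and 1.62 in control). Ratios of uORF to coding ORF used limma 3.58.1 on log2 counts plus 0.5, for pairs with a mean count of at least 10 each. DESeq2 1.42.0 and the settings below were alternatives. Genes, lists and tests were chosen with earlier results of these data known. In lists with over 6 tested genes, up to 4 with the smallest adjusted p were named. Some results of the other pathway genes are not reported here.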

Additional observations from a re-analysis of the deposited data

Results flagged for a closer look

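In 3 ORFs, P-sites were listed where counts were not, and the comparisons do not use these P-sites. The Plcb4 ORFs of 3066 and 3528 nt had 4521 and 5051 in-frame P-sites, and the internal ORF of Adra1b had 53, each with 0 counts in all 4 libraries. Of all annotated ORFs in the annotation, 1807 had 0 counts. Why counts are missing there was not tested, and P-sites are not split by library, so they give no change after PE.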

How the results depend on the processing

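Adra1b and Adra1d kept their direction and call in all 12 other settings, as did Adra1a and Grk5 in all but the test against 1.5-fold. Of the 9 genes, 2 were higher with library totals alone, 2 in DESeq2 and 0 against 1.5-fold; leaving out 1 library gave 2 to 3 higher and 2 to 4 lower. Over all ORFs, DESeq2 called 1793 higher and the 1.5-fold test 459 higher and 550 lower; leaving out 1 library gave 2231 to 2351 higher and 2292 to 2403 lower. Plcb3 ran from -0.17 to 0.0772 without 1 library, positive without control replicate 2, and was 0.0986 with the length trend removed; the cause was not tested. The Gnaq to Gna11 log2 ratio ran from -0.145 to 0.108 without 1 library.

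The number of uORF pairs called, 7, was 4 with a mean count of at least 5, 33 in the edgeR interaction, 24 with the replicate block and 6 to 17 without 1 library, with 17 without control replicate 1 and 12 without control replicate 2. The Adra1a uORF ratios ran from -0.245 to 0.212 for the first and -0.0861 to 0.427 for the second without 1 library, and turned sign without PE replicate 1 or control replicate 2. Same-numbered libraries deviated together with r = 0.012 over 9746 ORFs, so the numbers are not treated as pairs. With the replicate block 2721 ORFs were higher and 2714 lower, and it changed no call of the 9 genes. Among ORFs with counts, depth limits the Adra1b uORF, Plcb4 and the second Adra1a uORF most, which rest on 34, 68 and 115 counts over all libraries. The minimum of 0.5 counts per P-site and the ratios without each library were chosen after seeing the data.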
